A study of Mus musculus with 12 samples.

Results

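Protein phosphatase 1 (PP1) was followed here through 6 genes, the catalytic subunits Ppp1ca, Ppp1cb and Ppp1cc and the inhibitor proteins Ppp1r1a (inhibitor-1), Ppp1r1b (DARPP-32) and Ppp1r2 (inhibitor-2). They are 6 of the 27597 gene names on the arrays and were taken by gene name, as a family picked with earlier results of these data known. They are read by 12 of 41174 probes, each 60 bases long and each treated separately, and no further probe mapped to them through its accession or an older symbol. Tubules in suspension from mouse kidneys had been passed through a COPAS large-particle sorter into green fluorescent tubules (EGFP+, described by the submitters as distal convoluted tubules, DCT), the total suspension (ALL) and tubules without fluorescence (EGFP-). Each fraction came from the same 4 mice, males 2 and 4 and females 1 and 3, which gave 12 Cy3-labelled arrays. The sources used here give no strain or age for the mice, and do not say which promoter drove EGFP or whether any tubule type besides the DCT carried it.

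PP1 is a serine/threonine phosphatase whose catalytic subunit is bound by regulatory proteins that place it, direct it or block it. Inhibitor-1 and DARPP-32 block the catalytic site after protein kinase A (PKA) has phosphorylated them, and calcineurin and protein phosphatase 2A remove that phosphate. Inhibitor-2 binds the catalytic subunit without prior phosphorylation and is a target of glycogen synthase kinase 3. In the DCT the sodium chloride cotransporter Slc12a3 is switched on by phosphorylation through the WNK and SPAK kinases, so phosphatases and their inhibitors are studied there as the opposing arm.

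The 3 inhibitor probes below were picked for display because they separate the inhibitors: the probe of Ppp1r1a with the brighter signal, the single probe of Ppp1r1b, and the probe of Ppp1r2 that lies farthest from the others. Each is written 5′ to 3′ as on the array, and no letter is marked. On the mm8 mouse genome, per the file headers, they lie at chr15:103359427-103359486 on the minus strand, chr11:98171586-98172960 on the plus strand and chr16:31181043-31185099 on the minus strand. The Ppp1r1b and Ppp1r2 probes cover 1375 and 4057 bases of genome with 60 bases of sequence, so each spans a gap in its alignment. No mm8 annotation was used, so exons and untranslated regions are not assigned.
Ppp1r1a A_51_P293538: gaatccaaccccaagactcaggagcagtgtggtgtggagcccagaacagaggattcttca
Ppp1r1b A_52_P664867: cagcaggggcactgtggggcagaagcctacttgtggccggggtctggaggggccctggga
Ppp1r2 A_52_P638439: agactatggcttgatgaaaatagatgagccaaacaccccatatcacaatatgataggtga

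Array quality and the make-up of the fractions frame every value. Across arrays, the upper quartile of the processed signal was between 941 and 2364, lowest in the ALL and EGFP- tubules of mouse 4, and 53.9% to 65.6% of probes stood well above background. The 5 DCT markers were all higher in EGFP+ than in EGFP- tubules, with summed linear levels of 209 to 272 in EGFP+, 22.4 to 34.4 in ALL and 2.30 to 2.91 in EGFP- arrays. Of the EGFP- arrays, 0 of 4 showed Pvalb well above background. Trpm6 was well above it on 2 of 4, and Slc12a3, Cnnm2 and Emx1 on 4 of 4. All 4 late DCT and connecting tubule markers were higher as well, with sums of 334 to 435, 139 to 147 and 60.4 to 77.6 in the same order of fractions. Thick ascending limb markers were also higher (4 of 5, sums of 223 to 290 in EGFP+ and 84.7 to 105 in EGFP- arrays), although Cldn10 was lower. Of 5 intercalated cell markers, 1 was higher, 1 lower and 3 were not called. Their sums were 18.8 to 26.4 in EGFP+ and 26.7 to 37.7 in EGFP- arrays. All 6 proximal tubule markers and all 5 podocyte, 5 endothelial and 5 principal cell markers were lower in EGFP+ tubules. These other segments move with every EGFP+ difference given here, and their part in it was not tested.

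Levels are log2 processed signals minus the array's 75th percentile, so that 0 is the upper quartile of an array. A difference of 1 on this scale is a doubling. One probe's level is not set against another's, because probes differ in how brightly they bind. Differences come from a limma fit over the 25818 probes that the software marked as well above background on 4 or more arrays, a filter all 12 member probes passed. Adjusted p-values are Benjamini-Hochberg values over those 25818 probes, with a threshold of 0.05. Errors are SD for levels and SE for differences, with n = 4 mice per fraction.

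Of the 12 member probes, 7 were higher in EGFP+ than in EGFP- tubules, 0 were lower and 5 were not past the threshold in the limma fit. Over all tested probes 57.2% were past it, 33.9% higher and 23.3% lower. The median difference was 0.31 over the member probes and 0.17 over all probes. Against ALL tubules 7 member probes were again higher and 5 were not past the threshold, beside 54.3% of all probes called and 31.8% called higher. The median differences there were 0.37 and 0.15. Between ALL and EGFP- tubules 2 member probes were higher and 10 were not past the threshold, where 1.12% of all probes were called, 1.11% higher and 0.00387% lower. Both of those 2 read Ppp1r1a. EGFP+ arrays enter both of the wide contrasts, so their counts are not separate pieces of evidence. Counted by gene, with the probe of the highest mean level, 4 of 6 members were higher in EGFP+ than in EGFP- tubules, beside 33.1% of all genes called higher. That count was 2, Ppp1r1a and Ppp1r1b, with quantile normalization, with normexp background correction, and without mouse 1 or mouse 3. Normexp correction models the local background of each spot in place of the scanner software's subtraction, and an offset of 50 was added to each corrected signal. An added constant by itself shrinks log2 differences between dim signals. Its part in the values given with normexp correction was not tested.

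**Figure D1:**
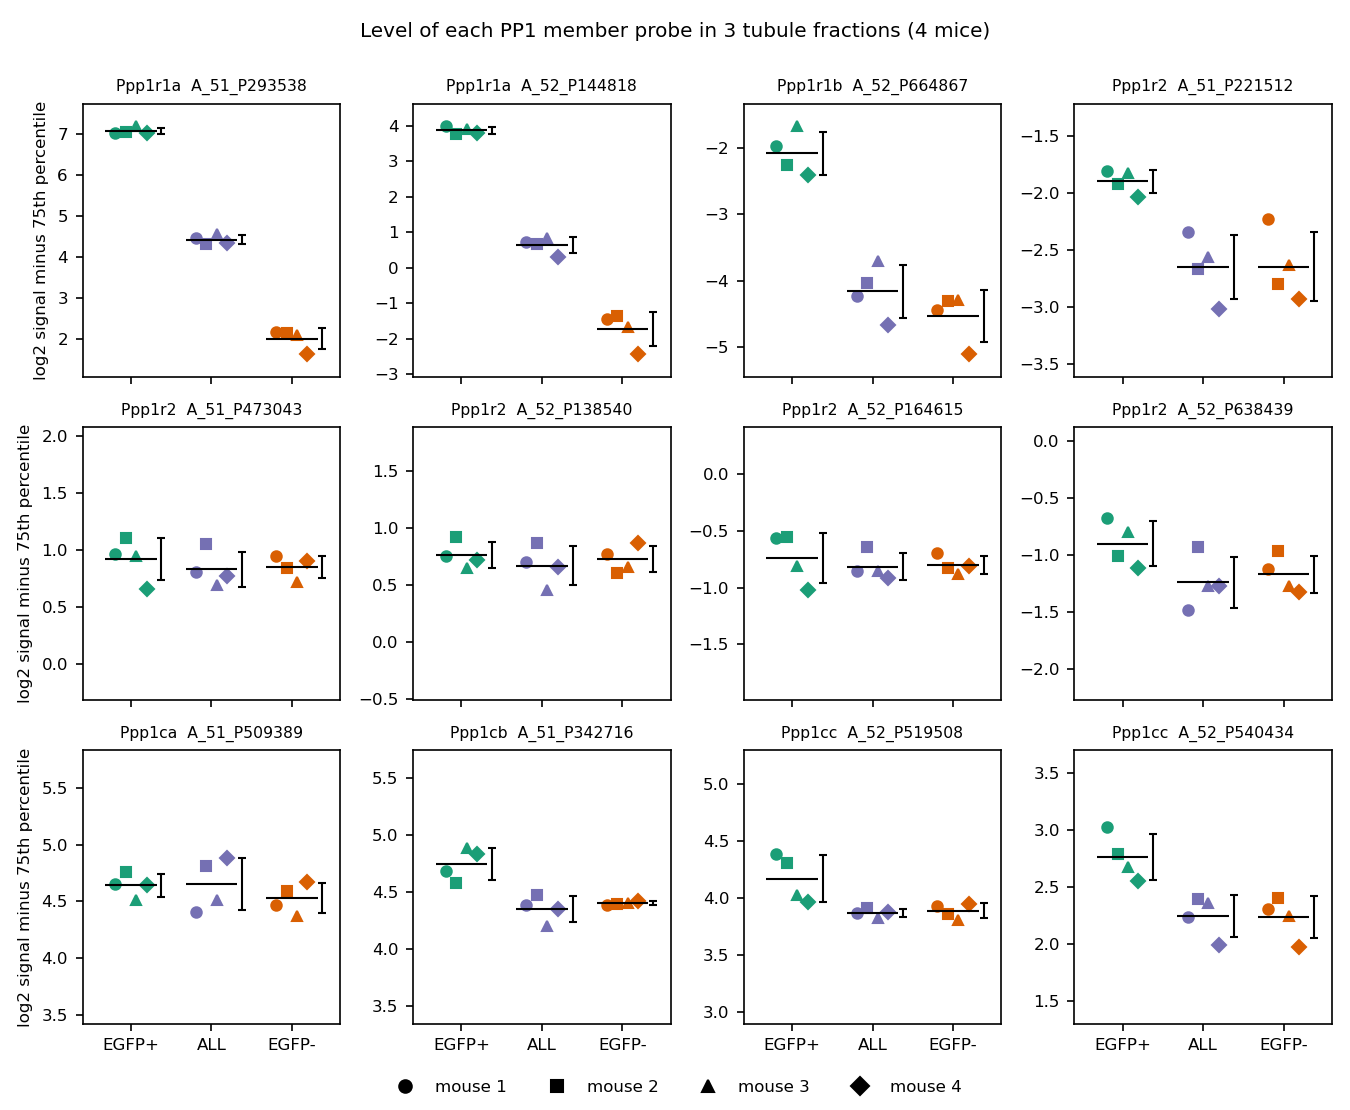
Level of each of the 12 PP1 member probes (log2 signal minus the array's 75th percentile) in EGFP+, ALL and EGFP- tubules; symbols are the 4 mice, the bar is the mean and the whisker the SD. The 3 fractions are stacked without overlap for both Ppp1r1a probes (7.07, 4.42 and 2.01 for the brighter one), while Ppp1ca overlaps in all 3. Each panel has its own vertical range.

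Ppp1r1a encodes inhibitor-1 and was the member that differed most. Its brighter probe read 7.03, 7.05, 7.18 and 7.03 in the EGFP+ tubules of mice 1 to 4, then 4.47, 4.33, 4.56 and 4.34 in ALL tubules, and 2.16, 2.15, 2.10 and 1.63 in EGFP- tubules. Every EGFP+ array lay above every ALL array, and every ALL array above every EGFP- array. The mean of 7.07 ± 0.08 in EGFP+ tubules was 33.4-fold above the 2.01 ± 0.25 in EGFP- tubules (95% confidence interval 27.3 to 40.7), a log2 difference of 5.06 ± 0.13 with a limma adjusted p of 7.24e-10. It was the 89th largest excess among the 25818 probes tested. Within the 3 array slides the difference was 4.88, 5.03 and 5.16. Because each slide holds a different mix of mice, these within-slide values also mix sex with fraction. Whether such an excess comes from more cells that make the transcript or from more transcript per cell cannot be told apart in sorted bulk tubules, here or for any other member.

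A separate Ppp1r1a probe, A_52_P144818 at chr15:103358676-103358735 on the minus strand, gave the same order of fractions. It read 3.99, 3.79, 3.92 and 3.79 in EGFP+, 0.72, 0.66, 0.85 and 0.31 in ALL, and -1.45, -1.37, -1.67 and -2.44 in EGFP- tubules of mice 1 to 4. No 2 fractions overlapped on it, and the EGFP- array of mouse 4 was again the lowest. The EGFP+ excess over EGFP- was 48.6-fold (35.1 to 67.4; log2 difference 5.60 ± 0.21, limma adjusted p = 2.85e-09), with 5.34, 5.29 and 5.85 within slides. The confidence intervals of the 2 probes overlap between 35.1-fold and 40.7-fold.

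Inhibitor-1 also separated the intermediate fraction. EGFP+ tubules exceeded ALL tubules 6.27-fold and 9.44-fold on the 2 probes (limma adjusted p = 2.46e-08 and 1.83e-07). ALL tubules exceeded EGFP- tubules 5.33-fold and 5.15-fold (log2 differences of 2.41 ± 0.13 and 2.37 ± 0.21, limma adjusted p = 6.22e-06 and 0.000132), in 4 of 4 mice each. These were the 47th and 50th largest excesses of ALL over EGFP- tubules among all tested probes. On the linear scale, the EGFP- level was 3.03 ± 0.48% of the EGFP+ level of the same mouse on one probe and 2.13 ± 0.62% on the other (SD, n = 4). The ALL level lay 13.3 ± 0.82% and 8.72 ± 0.99% of the way up from the EGFP- to the EGFP+ level.

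The same measures for Slc12a3, the cotransporter that defines the DCT, serve as a scale. Its probe read 7.29, 7.32, 7.75 and 7.62 in EGFP+, 4.63, 4.49, 4.75 and 4.00 in ALL, and -0.30, -1.81, -0.60 and -0.87 in EGFP- tubules. The fractions were again fully apart, with an EGFP+ excess over EGFP- of 8.39 ± 0.29 on the log2 scale and over ALL of 3.03 ± 0.29 (limma adjusted p = 1.79e-09 and 3.48e-06). In EGFP- tubules it stood at 0.321 ± 0.143% of its EGFP+ level, below both Ppp1r1a probes in each of the 4 mice. Its ALL level lay 12.4 ± 3.26% of the way up, a range (7.85 to 15.4% over the mice) that takes in both Ppp1r1a means.

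Ppp1r1b encodes DARPP-32, a relative of inhibitor-1 best known from striatal neurons that receive dopamine. Its probe was dim and read -1.97, -2.26, -1.67 and -2.41 in EGFP+ tubules, -4.23, -4.03, -3.71 and -4.67 in ALL tubules, and -4.43, -4.31, -4.29 and -5.11 in EGFP- tubules of mice 1 to 4. EGFP+ arrays lay above all the others, while ALL and EGFP- arrays overlapped. In mouse 4 neither its ALL nor its EGFP- signal was well above background. EGFP+ tubules exceeded EGFP- tubules 5.49-fold (log2 difference 2.46 ± 0.25, limma adjusted p = 4.57e-06), with 2.32, 2.64 and 2.29 within slides, and ALL tubules 4.24-fold (2.08 ± 0.25, adjusted p = 2.22e-05).

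ALL and EGFP- tubules were not separated past the threshold by DARPP-32. The difference was 0.37 ± 0.25 (95% confidence interval -0.17 to 0.92, limma adjusted p = 1), with ALL above EGFP- in 4 of 4 mice. This error and interval leave out the mouse pairing. Within mice 1 to 4 the difference was 0.20, 0.28, 0.58 and 0.43. With the mouse as a block its SE was 0.12 (limma adjusted p = 0.438). On the linear scale the EGFP- level was 18.5 ± 3.94% of the EGFP+ level, a share of dim signals that was 27.3 ± 4.71% with normexp correction. The place of ALL between the other fractions was not fixed by this probe: it lay 6.55 ± 2.58% of the way up, but anywhere from 4.94% to 93.1% over the 4 mice with normexp correction. The upper end of the unpaired confidence interval for ALL minus EGFP-, 0.92 on the log2 scale, is close to a doubling.

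Ppp1r2, inhibitor-2, was read by 5 probes that did not give one answer. From the upstream to the downstream end of the minus strand they are A_52_P638439, A_52_P164615 (chr16:31174398-31174457), A_52_P138540 (chr16:31173837-31173896), A_51_P221512 (chr16:31171926-31171985) and A_51_P473043 (listed at chr16:31171264-31171293). The position listed for A_51_P473043 spans only 30 bases, beside a probe length of 60. A_51_P473043 is also the probe that stands for Ppp1r2 in the counts by gene. Only A_51_P221512 was past the threshold. It read -1.81, -1.93, -1.83 and -2.04 in EGFP+, -2.35, -2.67, -2.56 and -3.02 in ALL, and -2.23, -2.80, -2.64 and -2.93 in EGFP- tubules. The EGFP+ arrays lay above all others, and the difference to EGFP- tubules was 0.75 ± 0.17 (1.68-fold, limma adjusted p = 0.00296; 0.36, 0.97 and 0.75 within slides). Against ALL tubules it was also 0.75 ± 0.17 (adjusted p = 0.00321), a call that was lost with normexp correction (0.0727).

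The other 4 inhibitor-2 probes overlapped between fractions. For A_51_P473043 the mean was 0.92 ± 0.19 in EGFP+, 0.83 ± 0.15 in ALL and 0.85 ± 0.10 in EGFP- arrays, and A_52_P138540 averaged 0.76 ± 0.12, 0.67 ± 0.17 and 0.73 ± 0.12. Their EGFP+ minus EGFP- differences were 0.07 and 0.03 (95% confidence intervals -0.20 to 0.34 and -0.22 to 0.29), and that of A_52_P164615 was 0.06 (-0.21 to 0.34). A_52_P638439, whose sequence is printed above, differed by 0.27 (-0.05 to 0.59, limma adjusted p = 0.139) from EGFP- and by 0.34 (0.02 to 0.66, adjusted p = 0.07) from ALL tubules. Under 5 of 13 alternative settings it was past the threshold against ALL, and under 1 of 13 against EGFP-. Whichever transcript forms the 5 probes read was not resolved here. The symbol Ppp1r2 has also been used as an older name of Ppp1r17, and all 5 probes carry the inhibitor-2 accession.

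**Figure D2:**
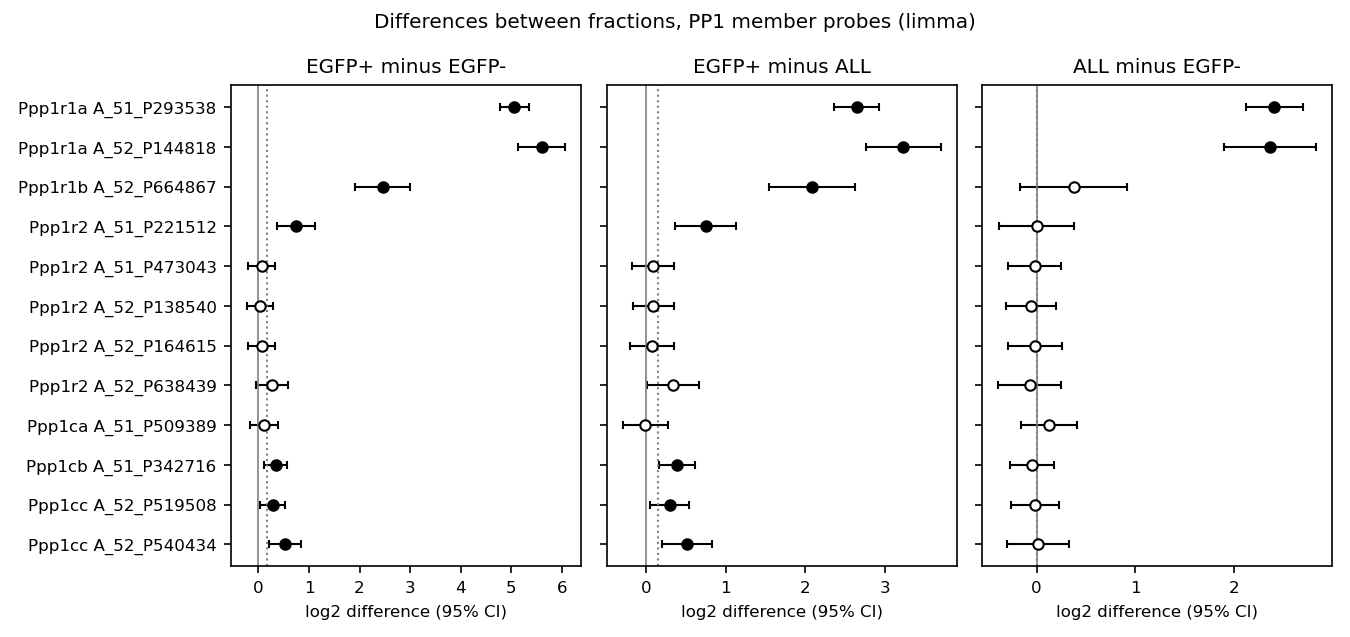
Log2 differences with 95% confidence intervals for the 12 member probes, for EGFP+ minus EGFP-, EGFP+ minus ALL and ALL minus EGFP-. Filled points are past the limma threshold, and the dotted line is the median of all 25818 probes (0.17, 0.15 and 0.01). The Ppp1r1a probes stand at 5.06 and 5.60 in the first panel, and they alone are filled in the last.

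The catalytic subunits differed little between fractions. Ppp1ca, the alpha isoform (chr19:4195105-4195164, plus strand), read 4.65, 4.76, 4.51 and 4.64 in EGFP+, 4.40, 4.81, 4.52 and 4.88 in ALL, and 4.47, 4.59, 4.38 and 4.67 in EGFP- tubules. All fractions overlapped. The EGFP+ minus EGFP- difference was 0.11 ± 0.13 (95% confidence interval -0.17 to 0.40, limma adjusted p = 0.478) and the EGFP+ minus ALL difference -0.01 ± 0.13 (-0.30 to 0.27, adjusted p = 0.95). The first of these intervals ends at 1.32-fold higher.

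Ppp1cb, the beta isoform and the catalytic subunit of myosin phosphatase, was slightly higher in EGFP+ tubules. Its probe (chr5:32769104-32769163, plus strand) read 4.69, 4.58, 4.89 and 4.83 in EGFP+, 4.38, 4.48, 4.20 and 4.35 in ALL, and 4.38, 4.39, 4.41 and 4.42 in EGFP- tubules. The lowest EGFP+ array stood above the highest of the other fractions. The excess was 1.27-fold over EGFP- (0.35 ± 0.10, limma adjusted p = 0.0132; 0.25, 0.50 and 0.42 within slides) and 1.31-fold over ALL tubules (0.39 ± 0.10, adjusted p = 0.0069). Without mouse 1, 3 or 4 the first of these calls was lost (adjusted p = 0.0588, 0.0777 and 0.0558), as was the call against ALL without mouse 3 (0.0866). Quantile normalization ended both (0.0875 and 0.133) and normexp correction the first (0.163). Relative to the median of all probes the difference to EGFP- was 0.18.

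Ppp1cc, the gamma isoform, was read by 2 probes, and both were higher in EGFP+ tubules by small margins. A_52_P540434 (chr5:122434915-122434974, plus strand) read 3.02, 2.79, 2.68 and 2.55 in EGFP+, 2.24, 2.39, 2.36 and 1.99 in ALL, and 2.30, 2.40, 2.25 and 1.97 in EGFP- tubules. The EGFP+ arrays did not overlap the others, and the excess over EGFP- was 1.44-fold (0.53 ± 0.14, limma adjusted p = 0.00746; 0.60, 0.27 and 0.44 within slides). The excess over ALL tubules was 1.43-fold (0.52 ± 0.14, adjusted p = 0.00896). Both calls were lost without mouse 1 (adjusted p = 0.0502 and 0.0689) and with normexp correction (0.0871 and 0.0572).

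A_52_P519508 (chr5:122435769-122435828, plus strand) read 4.38, 4.31, 4.02 and 3.96 in EGFP+, 3.87, 3.91, 3.82 and 3.88 in ALL, and 3.93, 3.86, 3.81 and 3.95 in EGFP- tubules. The EGFP+ arrays of mice 1 and 2, which share slide 1, were the high ones, and those of mice 3 and 4 lay 0.02 to 0.21 above their own EGFP- and ALL arrays. The difference to EGFP- tubules was 0.28 ± 0.11 (1.22-fold, limma adjusted p = 0.0499), with 0.41, 0.17 and 0.08 within slides 1, 2 and 3. With slide as a block the adjusted p was 0.0762, and without mouse 1, 2 or 3 it was 0.197, 0.227 and 0.113. Against ALL tubules the difference was 0.30 ± 0.11 (adjusted p = 0.0407), and it too was lost without mouse 1, 2 or 3. Quantile normalization, normexp correction and testing without the filter on dim probes also ended both calls. Mice have a further gene named as a copy, Ppp1ccb, and whether these probes also bind its transcript was not tested.

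Each of the 7 member probes called for EGFP+ against EGFP- had fractions that did not overlap, beside 55% of all probes with a value on every array of the pair. For EGFP+ against ALL the count was 7 as well, beside 51.4%, and for ALL against EGFP- 2, beside 2.71%. A two-sided exact permutation test that ignored the mouse pairing gave p = 0.0286 for each of these. That is the smallest value 4 against 4 arrays can give, and fractions that do not overlap fix it in advance. The permutation result therefore adds nothing to the counts.

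No member differed past the threshold between the sexes. For male minus female mice, averaged over fractions, 0 of 12 member probes were past the limma threshold and 0 had an unadjusted p under 0.05. Of all 25818 tested probes, 241 (0.933%) passed and 4871 had an unadjusted p under 0.05. The member differences ran from -0.42 ± 0.24 for Ppp1r1b (adjusted p = 0.398 in limma) to 0.24 ± 0.12 for Ppp1ca (adjusted p = 0.344). Ppp1r1a differed by -0.16 ± 0.13 and -0.27 ± 0.20 on its 2 probes. The EGFP+ minus EGFP- difference did not depend on sex past the threshold for any probe on the array (0 of 25818, or 0%, in limma, 2972 with an unadjusted p under 0.05, none of them a member). For the brighter Ppp1r1a probe that difference was 5.15 in males and 4.98 in females. These tests rest on 2 mice of each sex.

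The wider PP1 family was taken from lists of regulatory subunits, 46 genes of which 39 were tested. Between EGFP+ and EGFP- tubules 10 of them were higher, 12 were lower and 17 did not pass, with a median difference of -0.03, against 58.4% of all genes called, 33.1% higher and 25.3% lower, and a median of 0.13. Between EGFP+ and ALL tubules 9 of the 39 were higher, 11 lower and 19 not called, beside 30.8% and 24.4% of all genes. Between ALL and EGFP- tubules 0 of the 39 were called, where limma called 1.35% of all genes higher and 0.00586% lower. The balance of the 39 moved with the scaling. With arrays centred on their medians 12 were higher and 6 lower than in EGFP- tubules, and 13 and 6 against ALL. With normexp correction the counts were 7 and 7, then 6 and 6, and without mouse 2 they were 6 and 6, then 8 and 5. The groups below follow what the subunit is known to bind or do.

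Among 7 tested further inhibitors, 1 was higher and 1 lower (median 0.06). Ppp1r8, the nuclear inhibitor NIPP1, was 1.40-fold higher (0.48 ± 0.16, limma adjusted p = 0.019; 0.0935 with normexp correction). Ppp1r14a, the smooth muscle inhibitor CPI-17, was at least 1.85-fold lower (adjusted p = 0.00355), with 0 of 4 EGFP+ arrays well above background. This bound sets the mean of the brighter fraction against the lowest signal that counts as well above background on each dim array. With normexp background correction the Ppp1r14a difference turned to 0.51 and was not past the threshold.

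All 4 tested glycogen-targeting subunits, which carry PP1 to glycogen, were past the threshold, 2 in each direction. Ppp1r3d was 4.77-fold higher (2.25 ± 0.22, limma adjusted p = 3.67e-06) and Ppp1r3f 2.95-fold higher, the last against EGFP- arrays of which 1 of 4 was well above background. Ppp1r3c was 2.63-fold lower (-1.39 ± 0.48) and Ppp1r3e at least 1.59-fold lower. The 2 lower genes were dim in EGFP+ tubules, with 2 and 0 of 4 arrays well above background, and under normexp correction neither was past the threshold (-0.07 and 0.59). Without mouse 4 the Ppp1r3c difference was -2.10.

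Subunits that target PP1 to myosin or the cytoskeleton gave 4 higher, 3 lower and 4 not called among 11 tested (median 0.15). Phactr1, an actin-binding partner of PP1, was 4.67-fold higher (2.22 ± 0.16, limma adjusted p = 2.07e-07), Ppp1r9a (neurabin-1) 2.89-fold and Phactr2 1.69-fold higher. Ppp1r16b, the endothelial subunit TIMAP, was 25.5-fold lower (-4.67 ± 0.36, adjusted p = 4.57e-07), and all 3 of its probes were lower. With normexp correction that difference was -3.77. Ppp1r18 differed by -3.21 ± 0.33 (adjusted p = 5.96e-06), with 2 of 4 EGFP+ arrays well above background, and by -1.06 with normexp correction (0.0217). Phactr4 was 1.29-fold lower, a call that was lost with median centring (0.377) and without the filter on dim probes (0.0675). Summed endothelial markers were 1.95 to 2.52 in EGFP+ and 27.4 to 45.6 in EGFP- arrays, and their part in the Ppp1r16b value was not tested.

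The remaining 17 tested regulatory subunits had 3 higher, 6 lower and 8 not called (median -0.05). Ppp1r13b (ASPP1, a p53-binding protein) was 2.15-fold higher (1.10 ± 0.12, limma adjusted p = 6.78e-06). The nuclear proteins Ppp1r10 and Tox4 were 1.37-fold and 1.27-fold higher, Ppp1r10 with 1 of its 3 tested probes called. Wdr82, named here after its value was seen, was 1.33-fold lower (limma adjusted p = 0.0159), with 1 of its 2 tested probes called. Ppp1r21 was 2.39-fold lower (-1.26 ± 0.19), Ppp1r42 1.66-fold and Ppp1r37 1.37-fold lower. With the arrays centred on their medians the list had 3 higher and 1 lower (median 0.13), and with normexp correction 1 higher and 4 lower (median 0.10). Calls of Ppp1r42, Ppp1r37 and Wdr82 did not hold with median centring. Those of Ppp1r10, Tox4 and Ppp1r37 did not hold with normexp correction, and Ppp1r42 turned to 0.10 under normexp correction. Without mouse 2 this list had 1 gene higher and 2 lower. Leaving out 1 mouse ended several of the smaller calls among regulatory subunits: Ppp1r8 without mouse 1, 2 or 4, Ppp1r3c and Tox4 without mouse 1, 2 or 3, Ppp1r10 without mouse 2 or 4, and Phactr4 and Ppp1r37 without mouse 2, 3 or 4, with limma adjusted p-values of 0.0503 to 0.193.

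Of 17 enzymes that act on the inhibitors, 10 were higher, 2 lower and 5 not called (median 0.34), beside 33.1% of all genes higher and 25.3% lower (median 0.13). With normexp correction 6 were higher and 0 lower in limma. The regulatory subunits of PKA split. Prkar1b was 6.98-fold higher (2.80 ± 0.33, limma adjusted p = 1.6e-05; 2.21 with normexp correction) and Prkar1a 1.98-fold higher, while Prkar2b was at least 7.23-fold lower (adjusted p = 4.47e-07), with 0 of 4 EGFP+ arrays well above background. Its fitted difference shrank to -0.75 under normexp correction and was no longer called. The catalytic subunit Prkacb was 1.66-fold higher. Cdk5r1, an activator of the kinase Cdk5 that phosphorylates inhibitor-1 and DARPP-32, was 1.67-fold lower, lost its call without mouse 2 or 3, and turned to 0.11 under normexp correction. Without mouse 1 the count of higher enzymes was 5 and without mouse 2 or 3 it was 6.

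In the cotransporter pathway 6 of 10 genes were higher, 1 lower and 3 not called (median 2.05), beside 33.1% and 25.3% of all genes. Besides Slc12a3, Klhl3, the adaptor that marks WNK kinases for degradation, was 37.9-fold higher (5.24 ± 0.26, limma adjusted p = 1.3e-08), and Wnk1 was 18.8-fold higher on its brightest probe, with 5 of its 6 probes higher and 1 lower. Sgk1, a kinase induced by aldosterone, was 4.95-fold lower (-2.31 ± 0.33). Of the 10, 4 were also higher in ALL than in EGFP- tubules, where 1.35% of all genes were: Slc12a3, Klhl3, Wnk1 and, named here after its value was seen, Wnk4, by 5.36, 2.05, 1.54 and 1.08 on the log2 scale. The Ppp1r1a probes, at 2.41 and 2.37, fall within the range of those 4.

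**Figure D3:**
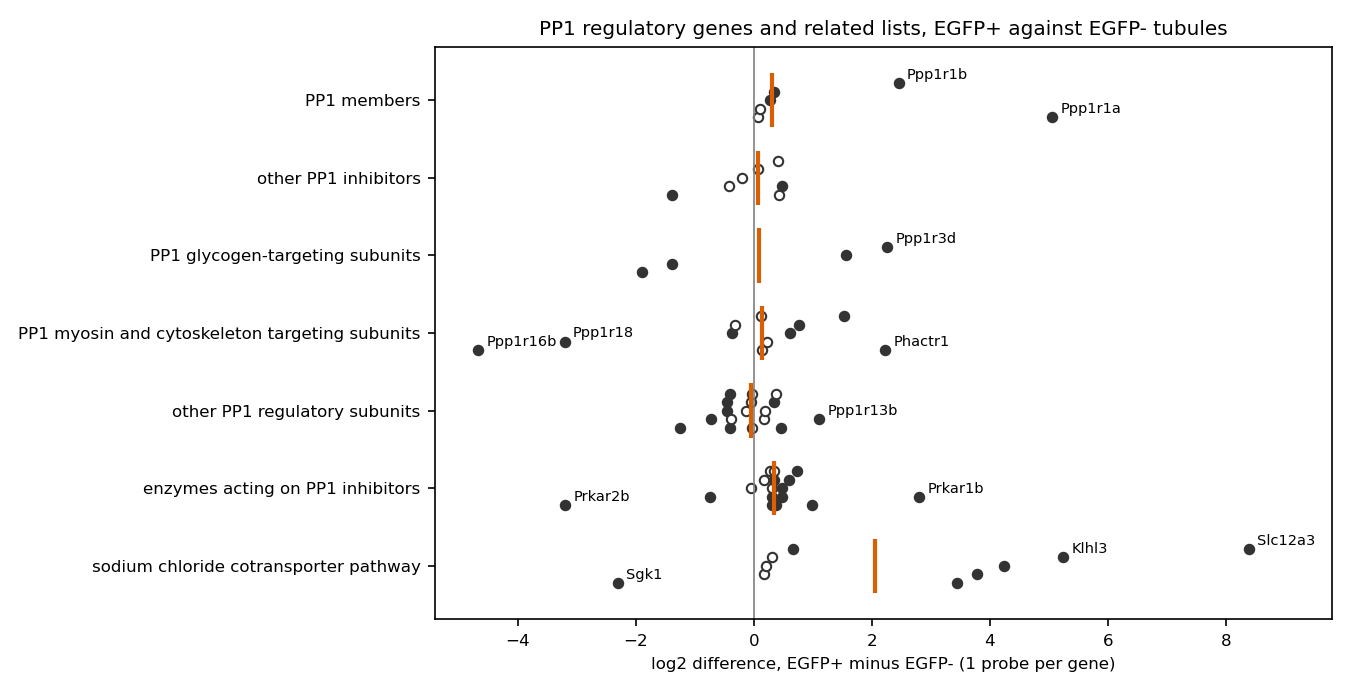
Log2 difference EGFP+ minus EGFP- (1 probe per gene) for the 6 PP1 members, 4 lists of other PP1 regulatory subunits, enzymes acting on the inhibitors, and the cotransporter pathway. Each point is a gene, filled where past the limma threshold, and the orange bar is the list's median. Ppp1r1a at 5.06 lies above every other PP1 gene plotted, the lowest being Ppp1r16b at -4.67.

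The genes whose profiles over the 12 arrays came nearest to each called member were found by the root mean square distance between profiles centred on their own mean, over 13704 named genes with a value on every array. Nearest to Ppp1r1a were Defb1 (a beta-defensin; distance 0.24 log2 units), Slc16a7 (a monocarboxylate transporter; 0.25), Dipk1b (0.27), Nol3 (0.28) and 1700028J19Rik (0.28), each with a Pearson r of 0.99, given as a description over 12 arrays that share the 4 mice. Defb1 differed by 4.86 between EGFP+ and EGFP- tubules. All 5 had ALL arrays between the other fractions, with ALL minus EGFP- differences of 1.79 to 2.34, beside 2.41 for Ppp1r1a. Their EGFP+ minus ALL differences were 2.86 to 3.15, beside 2.65. The 5 were picked by closeness on these same arrays, so the shared order of fractions and the high r follow from that choice.

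Ppp1r1b was nearest to Gpm6b (distance 0.17), Rell1 (0.18), Nipal2, Fbxo44 and Fam189b (0.19 each). Their ALL minus EGFP- differences were 0.31 to 0.54 and their EGFP+ minus EGFP- differences 2.37 to 2.74. That these lie near the Ppp1r1b values follows from how the genes were picked. For Ppp1cb the nearest gene was Rabgap1l (0.04), followed by Chmp2b, Pde8a, Rasa1 and Fam13b, and for Ppp1cc it was Pwp1 (0.06), followed by Metap2, Pdcl3, Banf1 and Nhlrc3. Small distances are easily reached where a profile is nearly flat, as for these catalytic subunits.

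**Figure D4:**
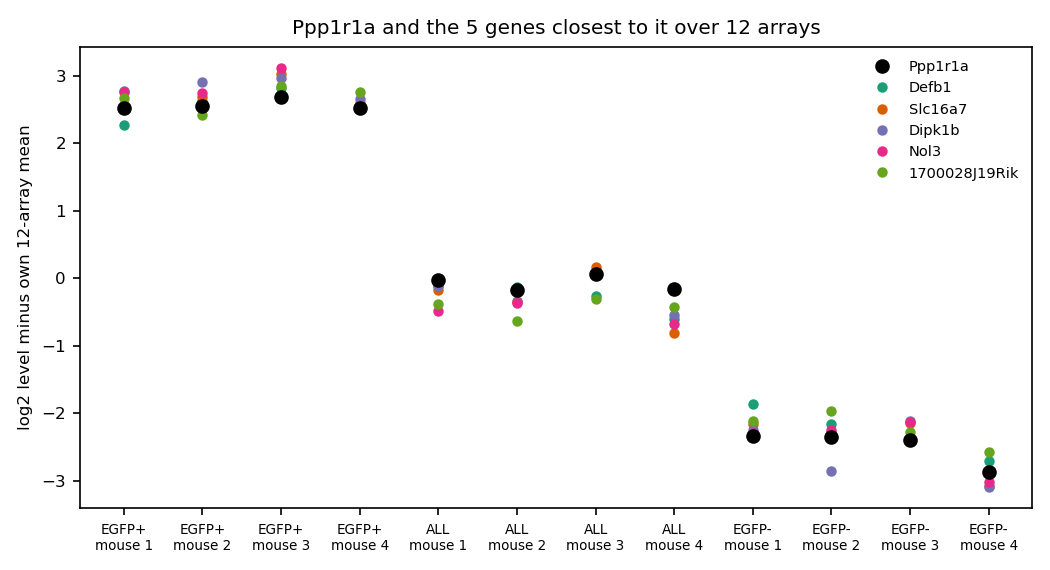
Centred level (log2 level minus the gene's own mean over 12 arrays) of Ppp1r1a and the 5 genes nearest to it, for each mouse in EGFP+, ALL and EGFP- tubules. Points of all 6 genes are high in EGFP+, near the middle in ALL and low in EGFP- tubules, as the choice of the 5 implies. On single arrays they spread, as from -1.97 (1700028J19Rik) to -2.86 (Dipk1b) in EGFP- tubules of mouse 2.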

How the data were processed

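The 12 samples are 3 sorted tubule fractions (EGFP+, ALL, EGFP-) of 4 mice on Agilent one-colour arrays of design 014868. Per the labels' protocols, the RNA came from an Ambion microRNA kit, and a linear amplification kit for low RNA input added the Cy3 label. The deposited scanner files, per the file headers read with Feature Extraction 9.5.3.1, give each spot's processed signal, a linear intensity from which background had been taken off by that software, beside its mean and local background intensity. The deposited marks (other values) for control, outlier, saturated and well above background spots were used as given. Each array held 45018 spots, 43379 of them not controls. The value table of the series was not used, since its columns are shifted by one fraction.

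From these, log2 signals were computed, outlier spots were left out, each array's 75th percentile was subtracted and spots of a probe were averaged. Differences were fitted with limma 3.58.1 in R 4.3.3, 1 coefficient per fraction over all 12 arrays, for probes well above background on at least 4 arrays. A probe without any array of a fraction well above background gets a lower bound of its fold. Accessions named 24375 probes, current symbols 6301 and older symbols 2426, and 8072 kept the file's name. The script was tested on simulated data with 200 planted changes of 1 log2 unit between EGFP+ and EGFP-. It recovered 51% of them, 100% of these in the right direction, and made 4 false calls.

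Same-numbered fractions come from the same mouse, so the numbers pair the samples. Their deviations from the fraction means correlated with r of 0.70 to 0.81 between ALL and EGFP- arrays. In pairs with an EGFP+ array r was 0.23 to 0.36. The differences and errors given without a block leave this pairing out. The number of arrays limits the precision. Members, lists and tests were chosen with earlier results of these data known. All probes of the 6 members were named, with up to 3 called genes in each direction from each PP1 or cotransporter list and the 5 nearest profiles. Alternatives covered scaling, background correction, filter, slide, mouse, outlier spots, 1 probe per gene and leaving out each mouse.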

Additional observations from a re-analysis of the deposited data

Results flagged for a closer look

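Of 36 sets of 4 values, 1 per member probe and fraction, 2 held a value that stood apart by Dixon's test at 95%, a share close to the 1 in 20 that chance gives. Both belong to the brighter Ppp1r1a probe. In EGFP+ tubules mouse 3 stood at 7.18, and the nearest of the other mice at 7.05. In EGFP- tubules mouse 4 stood at 1.63, and the nearest of the others at 2.10. Without mouse 3 or mouse 4 the EGFP+ minus EGFP- difference of that probe kept its direction and stayed past the threshold in limma. The EGFP- array of mouse 4 was also among the 2 dimmest, and whether that bears on its low value was not tested.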

How the results depend on the processing

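The calls for both Ppp1r1a probes, in all 3 comparisons, and for Ppp1r1b in the 2 comparisons with EGFP+ were kept under every alternative run. The EGFP+ minus EGFP- difference ran from 4.77 to 5.25 and from 5.23 to 5.79 for the Ppp1r1a probes and from 1.89 to 2.64 for Ppp1r1b. Against ALL tubules Ppp1r1b ran from 1.01, with normexp background correction, to 2.31.

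The count of member probes past the threshold moved with some settings. With normexp it was 4 in place of 7 for EGFP+ against EGFP- and 4 in place of 7 against ALL, where the count of all probes was 7948 in place of 14013, and 182 in place of 288 for ALL against EGFP-. With 1 probe per gene, which leaves 6 member probes, the counts were 4, 4 and 1. Leaving out 1 mouse gave 4 to 6 member probes for EGFP+ against EGFP- (4 without mouse 1), 5 to 7 against ALL, and 2 each time for ALL against EGFP-, whereas all probes called there ran from 106 (without mouse 2) to 332 and were 142 and 119 without mice 1 and 3. Over all probes the same step gave 12615 to 14093 for EGFP+ against EGFP- and 11633 to 13179 against ALL.

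With the mouse as a block, as the pairing allows, the member counts were 7, 7 and 2, the counts of all probes 16722, 16172 and 416, and no member call changed. With slide as a block only the Ppp1cc probe A_52_P519508 lost its call, against EGFP- and against ALL (adjusted p = 0.0762 and 0.0596). Ppp1r2 A_52_P638439 gained one against ALL (0.0318), as it also did without mouse 2. In all, that probe gained a call against ALL under 5 of 13 alternatives (lowest limma adjusted p 0.0124). Against EGFP- it gained a call under 1 of 13 (0.0358). Ppp1cb lost its call against EGFP- with normexp and quantile normalization (adjusted p = 0.163 and 0.0875) and against ALL with the last (0.133). Ppp1cc A_52_P540434 lost both calls with normexp (0.0871 and 0.0572), and Ppp1r2 A_51_P221512 its call against ALL (0.0727).

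Centring arrays on their medians moved the median difference of all probes from 0.17 to 0.35 for EGFP+ against EGFP- and from 0.15 to 0.38 against ALL, with 67.8% and 69.7% of calls higher in place of 59.2% and 58.6%. Normexp gave 68.1% higher for EGFP+ against EGFP-. The counts of member probes were then 8 and 8 with median centring.

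Signs turned only for differences near 0 that were not past the threshold, and for dim list genes. For EGFP+ against ALL, Ppp1ca turned to 0.22 with median centring and 0.012 with outlier spots kept, and without single mice it ran from -0.097 to 0.063. With normexp, EGFP+ minus EGFP- turned to -0.028 for Ppp1r2 A_52_P138540 and -0.027 for Ppp1ca, and among the list genes to 0.51 for Ppp1r14a, 0.59 for Ppp1r3e, 0.11 for Cdk5r1 and 0.10 for Ppp1r42. ALL minus EGFP- turned with normexp to 0.078 and 0.0085 for Ppp1r2 A_52_P164615 and A_52_P638439, -0.0041 for Ppp1ca and -0.094 for Ppp1cc A_52_P540434. For Ppp1r2 A_51_P221512 it turned to -0.043 with median centring, -0.025 with quantile normalization, -0.051 with slide as a block and -0.016 with outlier spots kept. For Ppp1cc A_52_P540434 the values were -0.032 with median centring, -0.060 with slide as a block and -0.0049 with outlier spots kept. Quantile normalization gave 0.044 for Ppp1cb and 0.047 for Ppp1cc A_52_P519508. Leaving out single mice, ALL minus EGFP- ran from -0.045 to 0.038 for Ppp1r2 A_51_P221512, from -0.098 to 0.018 for A_51_P473043, from -0.080 to 0.036 for A_52_P164615, from -0.11 to 0.024 for A_52_P638439, from -0.091 to 0.0054 for Ppp1cb and from -0.023 to 0.036 for Ppp1cc A_52_P540434. EGFP+ minus EGFP- ran from -0.058 to 0.095 for Ppp1r2 A_52_P138540 and from -0.0075 to 0.16 for A_52_P164615. The causes were not tested. The alternatives for the list genes, the counts by list and the linear shares were chosen after seeing the data. Dim probes, among them Ppp1r1b, Ppp1r14a, Ppp1r3e and Cdk5r1, are limited by their signal over background.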
